A study of Mus musculus with 12 samples.

Results

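Genes that mark the muscular and supporting cells of blood vessel walls were followed across 12 libraries of mouse heart RNA. The 10 members were taken from the deposited count matrix by symbol, and 10 of 10 were found among its 27504 genes. Acta2, Tagln, Cnn1, Myh11, Mylk and Smtn encode parts of the smooth muscle contractile apparatus, and Rgs5, Pdgfrb, Abcc9 and Kcnj8 are used as markers of pericytes. All hearts came from wild type C57BL/6 mice at postnatal day 45. Hearts of mice in an angiotensin II (AngII) model of cardiac hypertrophy are set against hearts of mice that had the sham operation. In each arm, mice were given vehicle (the solvent alone, which the labels call menstruum), or gastrodin, a phenolic glucoside from the orchid Gastrodia elata, into the stomach for 7 days at 5 or 50 mg/kg/day, with 2 libraries in each of the 6 groups. Libraries are numbered 1 to 12 in the labels, while the AngII dose, its route and the sex of the mice are not stated in the labels. The labels do not say whether the libraries of a group came from separate animals, so p-values measure the spread between these libraries.

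Smooth muscle cells wrap arteries and arterioles and set their width, while pericytes sit on capillaries inside the basement membrane of the endothelium. Contraction starts when calcium and calmodulin activate myosin light chain kinase, which phosphorylates the myosin that pulls on smooth muscle actin. Many contractile genes are driven by serum response factor (SRF), which binds a DNA element called the CArG box, together with its coactivator myocardin. Angiotensin II constricts vessels through its type 1 receptor on these cells.

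Total counts were 63488815 to 78604709 per library. Most were mitochondrial or close copies of mitochondrial sequence, and the counts left outside mitochondrial, mitochondrial-like and ribosomal RNA genes made up 7.49 to 20.3% in AngII hearts and 6.34 to 10.4% in sham hearts. Those nuclear counts numbered 4486903 to 15162312, and library 3 (AngII, 5 mg) was the deepest. Library 12 (sham, 50 mg) held 11.1% ribosomal RNA, against at most 0.983% in the others. Levels are given as CPM, the count divided by the size of the library, after TMM scaling, a step that brings the bulk of genes to a common level between libraries. The 10 ventricular muscle markers summed to 6104 to 10326 CPM in AngII hearts and 4308 to 7907 CPM in sham hearts, and the 10 genes were all detected in all 12 libraries, with counts of 16 (Cnn1 in library 5) to 11740 (Acta2 in library 2).

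**Figure D1:**
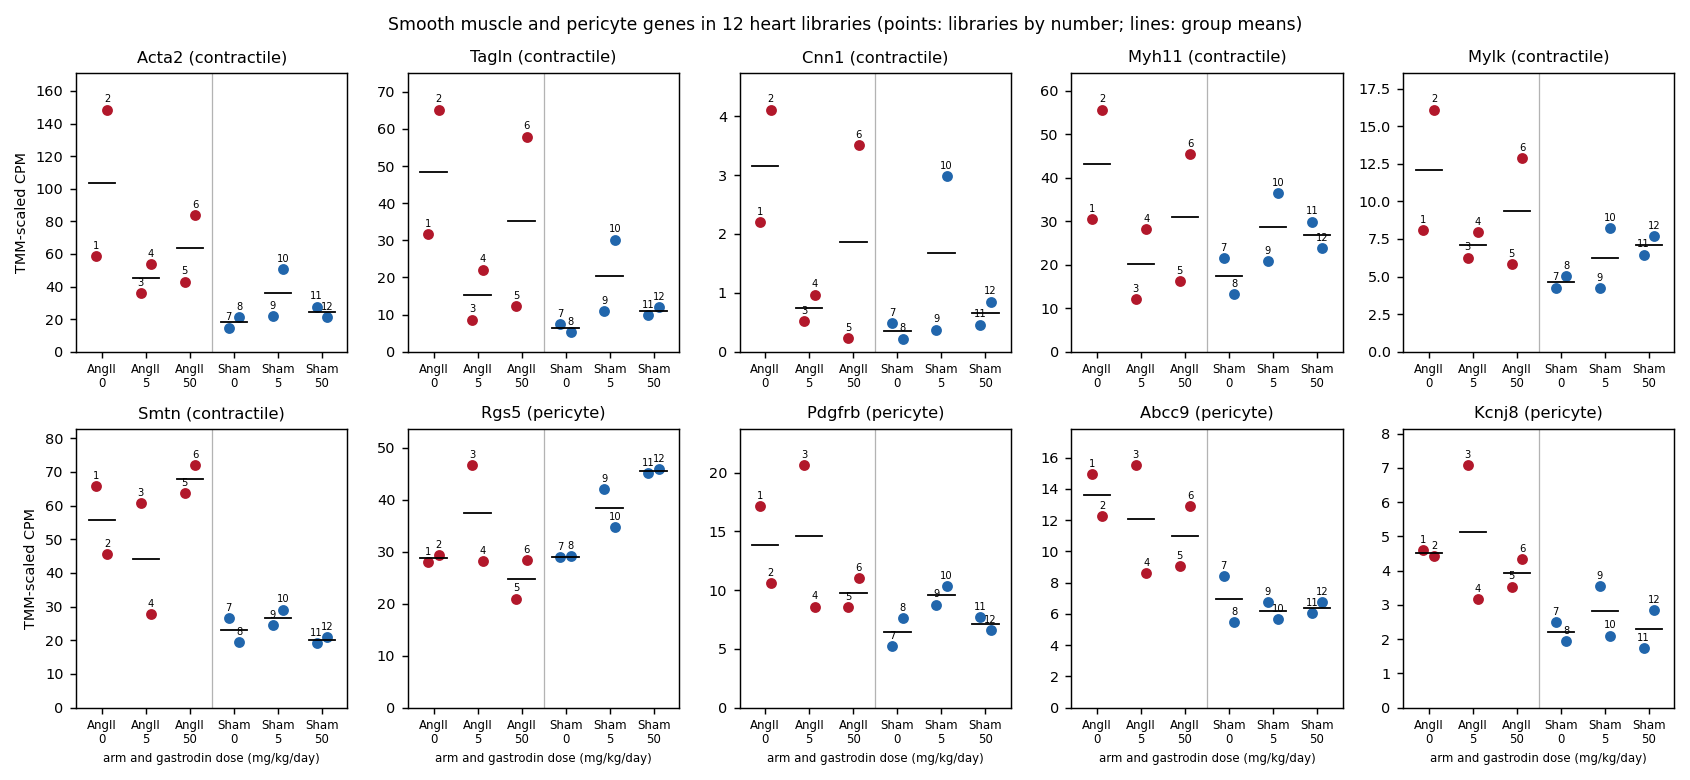
TMM-scaled CPM (vertical axes, linear, from 0) of the 10 genes by arm and gastrodin dose; each point is a library with its number, and lines are group means of 2 libraries. Abcc9 is the gene whose AngII points (8.62 to 15.5) all lie above its sham points (5.46 to 8.43), and the contractile genes of library 10 stand above library 9 in the sham 5 mg group.

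Of the 10 genes, 6 were higher in AngII than in sham hearts when the 3 doses were averaged, and 0 were lower. They were Acta2, Tagln and Smtn of the contractile genes and Pdgfrb, Abcc9 and Kcnj8 of the pericyte genes, with fitted fold changes of 1.65 to 2.65. The test was edgeR's quasi-likelihood F-test with Benjamini-Hochberg adjustment over 16723 genes at a threshold of 0.05. By the same rule 13.4% of all genes were higher and 7.53% lower. The median log2 fold change was 0.90 over the 10 genes and 0.10 over all genes tested. In whole heart RNA, more cells of a type and more RNA per cell cannot be told apart.

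Acta2 encodes the actin of smooth muscle thin filaments. In AngII hearts it stood at 58.5 and 149 CPM with vehicle, 36.2 and 54.0 CPM at 5 mg and 43.1 and 84.0 CPM at 50 mg. In sham hearts it stood at 14.9 and 21.1 CPM with vehicle, 22.0 and 50.7 CPM at 5 mg and 27.6 and 21.2 CPM at 50 mg. Library 2 was the highest AngII library and library 10 the highest sham library, and the arms overlapped only through library 10. The averaged log2 fold change was 1.40 ± 0.29 (SE), with an edgeR adjusted p of 0.00722, and the call held with any of the 12 libraries left out.

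The start of Acta2 is shown because it is the one promoter of those searched in which the CArG box, relaxed as described next, found a match. The CArG box was taken as CC, a core of 6 bases that are A or T, and GG, read on both strands (it is its own reverse in this form), in windows of 250 bases before to 50 bases after each gene's start in the RefSeq table for GRCm38.p6. The table held 7 of the 10 genes, all but Tagln, Myh11 and Pdgfrb, and other starts of these genes were not searched. The Mylk and Smtn windows lie wholly inside the spans that the GENCODE annotation gives for these genes. The exact box was in 0 of these 7 windows and in 1.63% of all 32851 windows. A relaxed box, with 1 of the 6 core bases C or G, was searched after that result was seen. It occurred 2 times in the Acta2 window, at 84 to 75 and at 34 to 25 bases before the start, and in none of the other 6 windows, while 9.98% of all windows held at least 1 and 0.822% at least 2. The 250 bases before the Acta2 start (chr19:34255374-34255623, minus strand, GRCm38.p6), with both relaxed boxes in capitals and the start following the last base, read 5′ to 3′:
Acta2: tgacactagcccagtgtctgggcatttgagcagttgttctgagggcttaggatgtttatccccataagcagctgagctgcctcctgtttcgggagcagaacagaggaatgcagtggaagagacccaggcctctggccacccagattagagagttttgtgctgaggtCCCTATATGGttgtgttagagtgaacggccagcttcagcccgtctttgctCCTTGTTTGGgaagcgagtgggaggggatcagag
A match is a description of these letters and not a measured binding site.

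Tagln encodes transgelin (SM22-alpha), an actin-bundling protein of smooth muscle. AngII hearts had 31.6 and 65.2 CPM with vehicle, 8.68 and 22.1 CPM at 5 mg and 12.3 and 57.9 CPM at 50 mg. Sham hearts had 7.41 and 5.22 CPM with vehicle, 10.9 and 30.2 CPM at 5 mg and 9.97 and 12.1 CPM at 50 mg. Libraries 2 and 6 were high and library 3 was low in the AngII arm, and the arms overlapped. Averaged over doses, the log2 fold change was 1.40 ± 0.39 with an edgeR adjusted p of 0.0250; leaving out library 6, 8, 9 or 11 in turn ended the call. Tagln shares 1241 exon bases, 62.4% of its exon length, with the antisense gene Gm48529, which had 37 to 449 counts per library against 384 to 7288 for Tagln. No source used here gives the strand setting of the counting, so reads over that stretch cannot be assigned with certainty.

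Smtn encodes smoothelin, an actin-binding protein of contractile smooth muscle. Its AngII levels were 65.7 and 45.6 CPM with vehicle, 60.7 and 27.7 CPM at 5 mg and 63.8 and 71.9 CPM at 50 mg. The sham levels were 26.6 and 19.4 CPM with vehicle, 24.4 and 29.1 CPM at 5 mg and 19.2 and 20.9 CPM at 50 mg. Only library 4 of the AngII arm lay within the sham range. Its averaged log2 fold change was 1.25 ± 0.21 with an edgeR adjusted p of 0.00282, and the call held with any library left out. Its highest AngII libraries were 6, 1, 5 and 3, while those of Acta2 and Tagln were 2 and 6. Summed over the 10 ventricular muscle markers, libraries 6, 3, 5 and 1 were likewise the highest AngII libraries, at 8683.5 to 10326 CPM. Library 4 was the lowest of that arm, at 6104 CPM. The part of heart muscle cells in the Smtn levels was not tested.

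Cnn1, Myh11 and Mylk did not pass the averaged test. Cnn1 encodes calponin 1, which binds actin and slows its myosin. AngII libraries gave 2.2 and 4.11 CPM with vehicle, 0.517 and 0.972 CPM at 5 mg and 0.229 and 3.51 CPM at 50 mg. Sham libraries gave 0.482 and 0.225 CPM with vehicle, 0.377 and 2.98 CPM at 5 mg and 0.460 and 0.852 CPM at 50 mg. The libraries of a group differed up to 15.3-fold (libraries 6 and 5), and the averaged log2 fold change was 1.17 ± 0.60 (edgeR adjusted p = 0.177). With single libraries left out, that value ranged from 0.17 to 1.89.

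Myh11 encodes the smooth muscle myosin heavy chain, the motor of the thick filament. The AngII levels were 30.5 and 55.6 CPM with vehicle, 12.1 and 28.2 CPM at 5 mg and 16.3 and 45.4 CPM at 50 mg. Its sham levels were 21.5 and 13.3 CPM with vehicle, 20.8 and 36.5 CPM at 5 mg and 29.9 and 23.9 CPM at 50 mg. The arms overlapped over most of their ranges, and the averaged log2 fold change was 0.33 ± 0.30 (edgeR adjusted p = 0.449, 95% interval -0.32 to 0.98).

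Mylk encodes myosin light chain kinase. AngII hearts showed 8.11 and 16.1 CPM with vehicle, 6.26 and 7.97 CPM at 5 mg and 5.86 and 12.9 CPM at 50 mg. The sham libraries showed 4.26 and 5.04 CPM with vehicle, 4.21 and 8.23 CPM at 5 mg and 6.46 and 7.71 CPM at 50 mg. Libraries 2 and 6 were again the highest, and the averaged log2 fold change was 0.66 ± 0.26 (edgeR adjusted p = 0.0820).

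Among the pericyte genes, Abcc9 encodes SUR2, a regulatory subunit of ATP-sensitive potassium channels, and Kcnj8 encodes Kir6.1, a pore subunit of such channels. The loci lie side by side on chromosome 6 (142564837 to 142571614 for Kcnj8 and 142587862 to 142702315 for Abcc9, GRCm38). Abcc9 stood at 14.9 and 12.2 CPM with vehicle, 15.5 and 8.62 CPM at 5 mg and 9.06 and 12.9 CPM at 50 mg in AngII hearts. Sham hearts showed 8.43 and 5.46 CPM with vehicle, 6.76 and 5.67 CPM at 5 mg and 6.03 and 6.73 CPM at 50 mg. Its highest AngII libraries were 3, 1 and 6 and its lowest was 4. Libraries 3, 1 and 6 were also among the highest for the ventricular muscle markers, and library 4 was the lowest. Library 5, high for those markers, was low for Abcc9. The part of heart muscle cells in the Abcc9 levels was not tested. Abcc9 was the one gene of the 10 whose 6 AngII libraries all lay above its 6 sham libraries, a pattern that 4.44% of all genes showed. Over the 3 doses the log2 fold change averaged 0.90 ± 0.20 (edgeR adjusted p = 0.00965), and the call held with any library left out.

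Kcnj8 stood at 4.60 and 4.42 CPM with vehicle, 7.08 and 3.17 CPM at 5 mg and 3.54 and 4.34 CPM at 50 mg in AngII hearts. For sham hearts the values were 2.51 and 1.94 CPM with vehicle, 3.54 and 2.11 CPM at 5 mg and 1.73 and 2.85 CPM at 50 mg. The arms met at libraries 4, 5 and 9. The averaged log2 fold change was 0.89 ± 0.25 (edgeR adjusted p = 0.0248), and the call was lost without library 1, 3, 6, 8, 10 or 11.

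Pdgfrb encodes the receptor through which PDGF-B from endothelial cells recruits pericytes. Among AngII hearts the values were 17.1 and 10.6 CPM with vehicle, 20.6 and 8.60 CPM at 5 mg and 8.55 and 11 CPM at 50 mg. Its values in sham hearts were 5.21 and 7.65 CPM with vehicle, 8.77 and 10.3 CPM at 5 mg and 7.72 and 6.58 CPM at 50 mg. Libraries 3 and 1 stood above the other AngII libraries, and the arms overlapped. Averaged over doses, the log2 fold change was 0.72 ± 0.23 (edgeR adjusted p = 0.0427), and the call held in 3 of the 12 fits that left out a library, those without library 2, 4 or 5.

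Rgs5 encodes a regulator that shortens signals from G protein-coupled receptors. It did not pass the test. Its values in AngII hearts were 28.0 and 29.4 CPM with vehicle, 46.6 and 28.2 CPM at 5 mg and 20.9 and 28.3 CPM at 50 mg. Against these stood sham values of 28.9 and 29.2 CPM with vehicle, 42.0 and 34.7 CPM at 5 mg and 45.1 and 45.9 CPM at 50 mg. The vehicle groups were nearly level, and the 50 mg groups did not overlap. Its averaged log2 fold change was -0.31 ± 0.17 (edgeR adjusted p = 0.207), the one negative value of the 10, and it was 0.26 on the deposited TPM scale.

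The nuclear share of counts was higher in part of the AngII arm: libraries 3, 6 and 1 had the highest shares, of 20.3, 18.7 and 14%, and also the highest median levels of the pericyte genes. With that share as a covariate in the edgeR fit, 2 of the 10 genes were called, where 2.82% of all genes were called in either direction. Acta2 had a log2 fold change of 1.44 and Smtn one of 0.89, with adjusted p of 0.0446 and 0.0285. Tagln was at 1.44 and Abcc9 at 0.59, with adjusted p of 0.130 and 0.129, and Kcnj8 at 0.54 and Pdgfrb at 0.23, with adjusted p of 0.293 and 0.545. Over the 10 alternatives other than single left-out libraries, the highest adjusted p was this one for each of these genes, except Smtn, for which it was 0.0337.

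**Figure D2:**
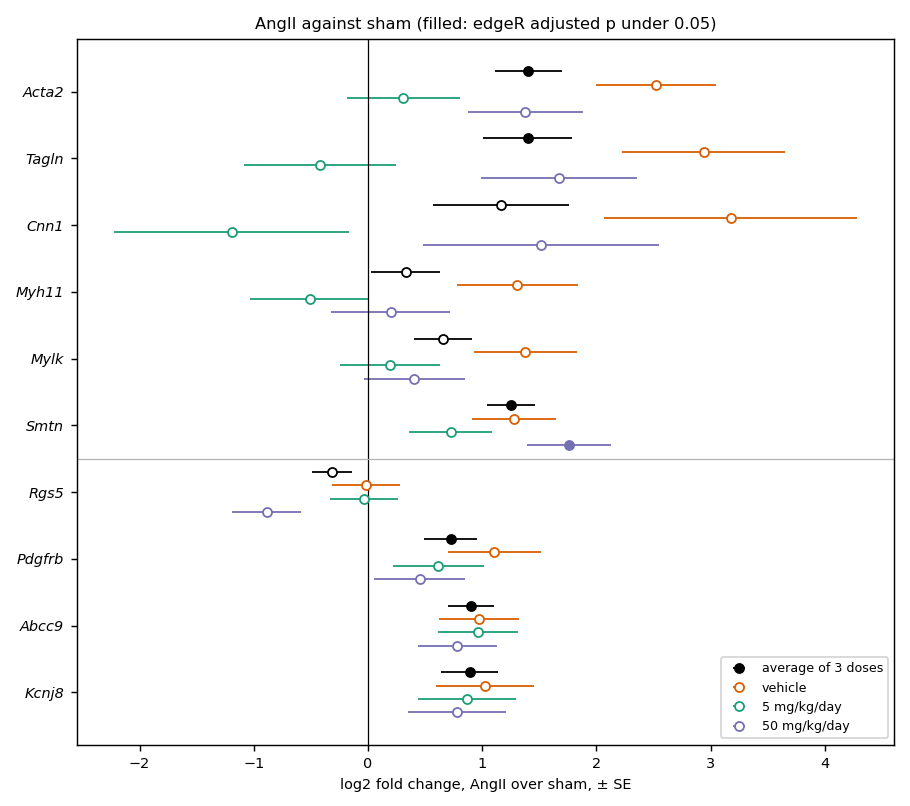
Log2 fold change of AngII over sham with its SE (horizontal axis) for the 10 genes, averaged over 3 doses and at each dose; filled points passed edgeR's adjusted threshold of 0.05. The averaged points of 6 genes are filled and, of the values at single doses, Smtn at 50 mg.

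At each dose alone, with 2 libraries against 2, 0 of the 10 genes passed in vehicle hearts, where 0.0478% of all genes were higher and 0.012% lower. The vehicle log2 fold changes of the contractile genes were 3.18 ± 1.11 for Cnn1, 2.94 ± 0.71 for Tagln, 2.52 ± 0.52 for Acta2, 1.38 ± 0.45 for Mylk, 1.31 ± 0.53 for Myh11 and 1.28 ± 0.37 for Smtn. Their edgeR adjusted p ran from 0.0919 (Acta2) to 0.253 (Myh11). Pdgfrb was at 1.11 ± 0.40, Kcnj8 at 1.02 ± 0.43 and Abcc9 at 0.97 ± 0.35, while Rgs5 was at -0.02 ± 0.30. Both AngII libraries lay above both sham libraries for 9 of the 10 genes, all but Rgs5, and 29.3% of all genes showed that pattern. The median was 1.29 over the 10 genes and 0.06 over all genes. All but Rgs5 passed an unadjusted edgeR p of 0.05, 9 higher and 0 lower, where 11% of all genes were higher at that level. With no filter on low counts the 6 contractile genes passed and the pericyte genes did not, where 4.46% of all genes passed in either direction. Without library 2, Acta2 was at 1.73.

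At 5 mg, 0 of the 10 genes passed and 0% of all genes did. The contractile genes had a median log2 fold change of -0.11 and the pericyte genes one of 0.74, beside 0.09 for all genes. Acta2 was at 0.31 ± 0.50, Tagln at -0.42 ± 0.66 and Cnn1 at -1.19 ± 1.03, and the sign of Tagln and Cnn1 turned without library 10 (0.50 and 0.97). That of Tagln also turned without library 3 (0.11), and that of Acta2 without library 4 or 9 (-0.0004 and -0.17). Abcc9 was at 0.96 ± 0.35 and Kcnj8 at 0.87 ± 0.43; edgeR adjusted p was 0.335 for Abcc9 and 0.446 for Kcnj8. Smtn was at 0.72 ± 0.36 (edgeR adjusted p = 0.448). These values depended on which 5 mg AngII library was kept. Without library 3, which had the highest nuclear share, Abcc9 was at 0.48, Kcnj8 at 0.17 and Smtn at 0.06. Without library 4, Abcc9 was at 1.33 and Smtn at 1.19, and both passed (edgeR adjusted p = 0.0376 and 0.0411), while Kcnj8 was at 1.33 and did not. With the nuclear share as a covariate Abcc9 was at 0.54 and Kcnj8 at 0.35.

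At 50 mg, Smtn rose in AngII hearts by a log2 fold change of 1.76 ± 0.37 (edgeR adjusted p = 0.0215), the one call of the 10, where 4.04% of all genes were higher and 1.38% lower. The call was lost without library 6, 11 or 12 and on TPM. Tagln was at 1.67 ± 0.68, Acta2 at 1.38 ± 0.50, Abcc9 at 0.78 ± 0.35 and Kcnj8 at 0.78 ± 0.43, none past the adjusted threshold. Without library 6, Tagln was at 0.19, Acta2 at 0.86 and Smtn at 1.71. Cnn1, Myh11 and Mylk turned negative without it, to -1.48, -0.69 and -0.24. Rgs5 was at -0.89 ± 0.30 (edgeR adjusted p = 0.101), with both AngII libraries below both sham libraries, as 28.4% of all genes had. With the nuclear share as a covariate Rgs5 was at -1.17 and passed (edgeR adjusted p = 0.0309).

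The 2 sets of genes were also set against each other library by library. The median deviation of the 6 contractile genes from their own 12-library means, in log2 CPM, was 0.75 and 1.55 in AngII hearts with vehicle, -0.46 and 0.16 at 5 mg and -0.36 and 1.07 at 50 mg. In sham hearts it was -0.79 and -0.90 with vehicle, -0.69 and 0.45 at 5 mg and -0.62 and -0.27 at 50 mg. For the 4 pericyte genes it ran from -0.09 to 0.97 in AngII hearts and from -0.50 to 0.01 in sham hearts. Summed, these 4 genes reached 42.1 to 89.8 CPM in AngII hearts (median 56.6) and 44.2 to 62.1 CPM in sham hearts (median 56.7). The contractile median minus the pericyte median was 1.24 in library 2, 0.75 in library 6 and 0.72 in library 10, and -1.43 in library 3. Library 3 had the highest pericyte median of all (0.97) beside a contractile median below the 12-library mean.

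**Figure D3:**
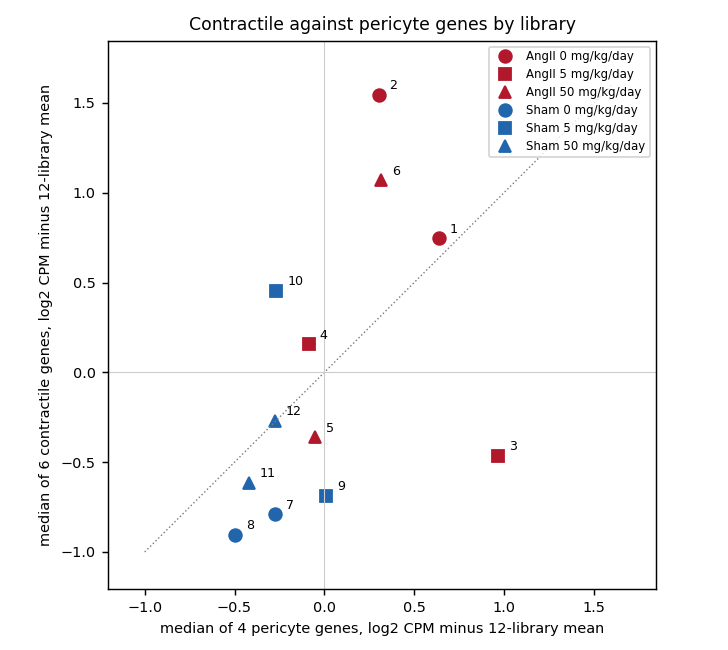
Median log2 CPM deviation of the 6 contractile genes (vertical) against that of the 4 pericyte genes (horizontal), each from its own 12-library mean; points are libraries with their numbers, coloured by arm, and the dotted line marks equal values. Libraries 2, 6 and 10 lie farthest above the line and library 3 lies 1.43 below it.

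Libraries of one group differed widely. In the AngII 50 mg group, 6 of 6 contractile genes were higher in library 6 than in library 5, by 1.13 to 15.3-fold, and in the sham 5 mg group 6 of 6 were higher in library 10 than in library 9, by 1.19 to 7.91-fold. In the AngII 5 mg group, 4 of 4 pericyte genes were higher in library 3 than in library 4, by 1.65 to 2.40-fold, while 5 of 6 contractile genes were higher in library 4. The exception was Smtn.

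Gastrodin was set against vehicle in each arm; both doses share the vehicle libraries of their arm, which also enter the contrast of the arms. No gene of the 10 passed at either dose in either arm. In AngII hearts at 5 mg, 0.00598% of all genes were higher and 0% lower by the same rule. The 6 contractile genes all had negative log2 fold changes there: -2.10 ± 1.04 for Cnn1, -1.66 ± 0.68 for Tagln, -1.20 ± 0.50 for Acta2, -1.10 ± 0.53 for Myh11, -0.77 ± 0.44 for Mylk and -0.33 ± 0.36 for Smtn, with edgeR adjusted p of 1 for each. Without library 2, Acta2 was at -0.40, Tagln at -1.07, Myh11 at -0.63 and Mylk at -0.21. Without library 4, Smtn was at 0.12, Tagln at -2.48 and Myh11 at -1.83. By library, Tagln was at 8.68 and 22.1 CPM at 5 mg, against 31.6 and 65.2 CPM with vehicle. Both 5 mg libraries lay below both vehicle libraries for 5 of the 10 genes (all contractile, without Smtn), and 11.5% of all genes showed that pattern. Acta2 and Tagln, 2 of the 10, had an unadjusted edgeR p under 0.05, where 0.885% of all genes were lower at that level. The pericyte genes had a median of 0.13 and all genes one of 0.01.

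In AngII hearts at 50 mg, the median was -0.47 over the contractile genes, -0.26 over the pericyte genes and 0.00 over all genes, and 0.00598% of all genes were higher and as many lower. Acta2 was at -0.70 ± 0.50 and Pdgfrb at -0.50 ± 0.40, with edgeR adjusted p of 1. Acta2 had a value of 0.12 without library 2, so its sign rested on that library. Tagln, Myh11 and Mylk also turned positive without library 2, to 0.15, 0.02 and 0.21. Without library 5, Tagln, Cnn1, Myh11 and Mylk turned positive, to 0.26, 0.16, 0.08 and 0.09.

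In sham hearts at 5 mg, the 6 contractile genes all had positive values, with a median of 0.87 beside 0.00 for all genes, and 0% of all genes were higher and 0.0179% lower. Cnn1 was at 2.27 ± 1.09, Tagln at 1.70 ± 0.68 and Acta2 at 1.01 ± 0.50, with edgeR adjusted p of 1 for each. Without library 10 they were at 0.11, 0.78 and 0.29, and Mylk was at -0.14, so its sign rested on that library. In sham hearts at 50 mg, where 0.0837% of all genes were higher and 0.0658% lower, Rgs5 was at 0.65 ± 0.30 (edgeR adjusted p = 0.542), with 45.1 and 45.9 CPM at 50 mg against 28.9 and 29.2 CPM with vehicle. Tagln was at 0.80 ± 0.67 there.

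**Figure D4:**
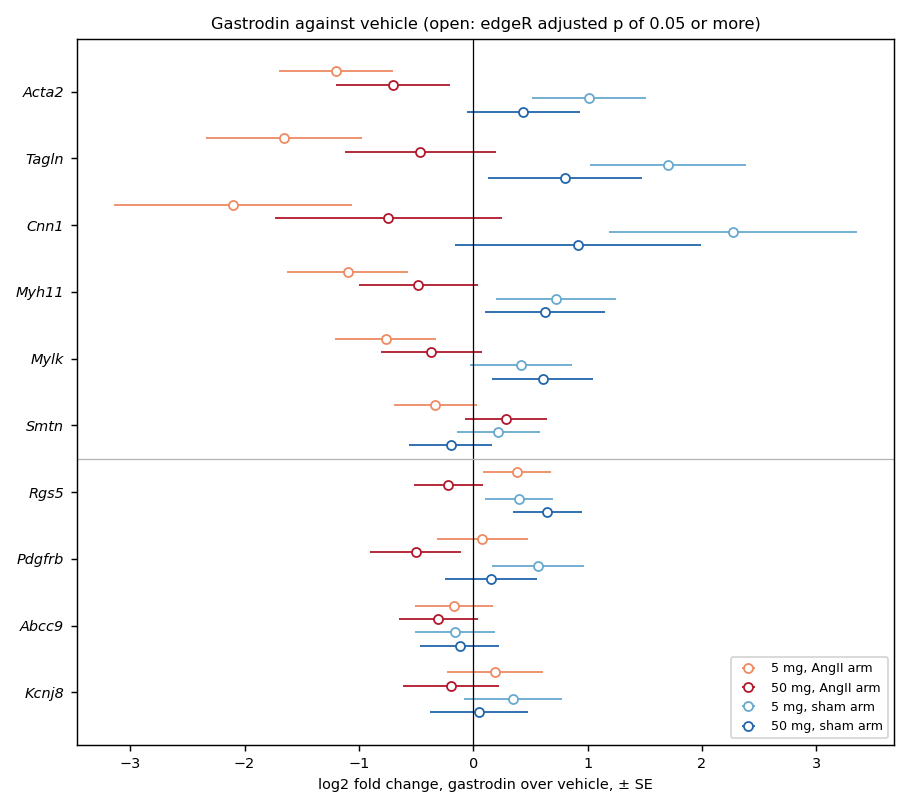
Log2 fold change of gastrodin over vehicle with its SE (horizontal axis) for the 10 genes at 5 and 50 mg in each arm; open points mark edgeR adjusted p of 0.05 or more, which all are. At 5 mg the contractile genes lie left of 0 in AngII hearts, from -2.10 to -0.33, and right of 0 in sham hearts, from 0.22 to 2.27.

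Whether gastrodin's effect differed between the arms was tested by the interaction, the log2 change with gastrodin in AngII hearts minus that in sham hearts. At 5 mg the 6 contractile values were negative, the 4 pericyte values ran from -0.49 to -0.01 and 0 of the 10 passed, with 0.00598% of all genes higher and 0% lower. Cnn1 was at -4.37 ± 1.51, Tagln at -3.36 ± 0.96, Acta2 at -2.21 ± 0.71 and Myh11 at -1.82 ± 0.75, with edgeR adjusted p of 0.9999 for each. These 4 had an unadjusted edgeR p under 0.05, as 1.63% of all genes had in that direction. The contractile median was -2.02, the pericyte median -0.09 and that of all genes 0.03. Without library 10, Cnn1 was at -2.22, Tagln at -2.44 and Acta2 at -1.49, and without library 2 Acta2 was at -1.42. Without library 4 the 4 pericyte values were 0.0032 to 0.35, all of the other sign. Those of Rgs5, Abcc9 and Kcnj8 also turned without library 9, to 0.13, 0.12 and 0.26. With no filter on low counts 3 of the 10 passed, Acta2, Tagln and Cnn1 (edgeR adjusted p = 0.00648, 1.56e-07 and 0.00021), where 0.374% of all genes passed in either direction. At 50 mg, Acta2 was at -1.14 ± 0.70 (-0.32 without library 2) and Rgs5 at -0.87 ± 0.43 and none of the 10 passed, where 0.00598% of all genes were higher and 0.0239% lower. The test of any difference among the 6 groups called 0 of the 10 (1.97% of all genes); 4 had an unadjusted edgeR p under 0.05, as 18.2% of all genes had.

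Levels of different genes were compared per length on the deposited TPM values, which carry no TMM scaling, so the nuclear share enters them. Smtn or Acta2 was the highest of the 10 in each library, at 42.8 ± 23.5 TPM for Smtn and 41.7 ± 22.7 TPM for Acta2 in AngII hearts and 10.4 ± 2.29 and 10.3 ± 5.48 TPM in sham hearts (SD, n = 6 per arm). Neither of these neighbours in the order stood apart from the other. Tagln was at 25.6 ± 20.9 TPM in AngII hearts and 6.31 ± 4.84 TPM in sham hearts, and Rgs5 at 9.93 ± 6.71 TPM in AngII hearts and 7.26 ± 2.17 TPM in sham hearts. Next came Myh11, at 5.81 ± 3.53 TPM in AngII hearts and 2.91 ± 1.08 TPM in sham hearts, and Mylk, Pdgfrb, Kcnj8 and Abcc9 had arm means of 2.24 to 3.85 TPM in AngII hearts and 0.697 to 1.58 TPM in sham hearts, with overlapping ranges between neighbours. Cnn1 was the lowest gene in 9 of the 12 libraries, with arm means of 1.99 ± 1.78 TPM in AngII hearts and 0.598 ± 0.717 TPM in sham hearts. On the scale of log2(TPM + 1), 3 of the 10 genes were called in the averaged contrast of the arms, and 8.78% of all genes were. The pericyte genes were not, at log2 fold changes of 0.85 for Pdgfrb, 0.84 for Abcc9 and 0.85 for Kcnj8 on that scale.

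The other genes of the contractile apparatus did not follow as a group. Of 25 tested, 2 rose in AngII hearts and 4 fell in the averaged contrast, with a median log2 fold change of -0.08. Beside this count and those of the lists that follow, 13.4% of all genes rose and 7.53% fell. Those that rose were Myl9, the regulatory light chain that myosin light chain kinase phosphorylates, at 1.09 ± 0.28, and Tpm2, beta-tropomyosin, at 0.90 ± 0.23 (edgeR adjusted p = 0.0165 and 0.0181). Those that fell were Cnn3, a calponin of non-muscle cells, at -1.61 ± 0.28, Tpm4, a tropomyosin of non-muscle cells, at -1.19 ± 0.22, Cald1, caldesmon, at -0.80 ± 0.22 and Cnn2 at -0.56 ± 0.16. Tpm2, Cald1 and Cnn2 are named here because they passed, after their values were seen. Myl9 stood at 30.4 and 54.8 CPM with vehicle, 11.6 and 18.0 CPM at 5 mg and 13.8 and 42.6 CPM at 50 mg in AngII hearts, and at 8.76 to 22.8 CPM in sham hearts, with library 10 the highest.

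The genes whose 12-library profile lay nearest to the contractile median were Tpm2 and Myl9, with root-mean-square differences of 0.18 and 0.21 in log2 CPM, then Mustn1 (0.40), Thoc1 (0.45), Mtss1 (0.46) and Jam3 (0.47). The median over the 7173 genes compared was 0.87, and the contractile genes themselves lay at 0.31 (Mylk) to 0.75 (Cnn1). Nearest to the pericyte median were Trim3 and Bahd1 (0.15 each), Ptpn14 (0.16), Npdc1 and Ttc5 (0.17 each) and Sec24b (0.18), against a median of 0.60. Rgs5, at 0.54, was the pericyte gene farthest from its own group's median, and the other 3 lay at 0.21 to 0.25.

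Among regulators of the contractile programme, 1 of 11 tested rose and 1 fell in AngII hearts. For these and for the genes of vessel tone below, the shares over all genes were 13.4% higher and 7.53% lower. Smad3, a mediator of TGF-beta signals, was at 0.88 ± 0.20, and Elk1, which competes with myocardin for SRF, at -0.95 ± 0.24 (edgeR adjusted p = 0.0108 and 0.0174). Srf and Myocd did not pass. Of 20 genes of vessel tone, 3 rose and 1 fell: Npr1, the receptor of atrial natriuretic peptide, was at 1.85 ± 0.33, the alpha-1B adrenergic receptor gene Adra1b at 1.00 ± 0.27, the endothelin receptor gene Ednra at 0.79 ± 0.26 and the small GTPase gene Rhoa at -0.95 ± 0.23. Ednra is named because it passed, after its values were seen.

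Of 5 genes of the PDGF ligands and the alpha receptor, 2 rose and 0 fell, where 13.4% of all genes rose and 7.53% fell. Pdgfa was at 1.25 ± 0.22 and Pdgfb, whose product is the ligand of Pdgfrb, at 0.95 ± 0.22 (edgeR adjusted p = 0.00307 and 0.0110), while Pdgfd was at 0.62 ± 0.33 and did not pass. Of the partners of the 2 potassium channel genes, Abcc8, which encodes SUR1, rose by 2.12 ± 0.29 (edgeR adjusted p = 0.00118), with 2.03 to 7.20 CPM in AngII hearts and 0.754 to 1.81 CPM in sham hearts. Kcnj11, which encodes Kir6.2, was at 0.31 ± 0.27 and did not pass.

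Of 13 other markers of vessel wall cells, Notch3, a receptor of arterial smooth muscle and pericytes, rose by 1.32 ± 0.28 (edgeR adjusted p = 0.00766) and 0 fell. Higd1b was at 0.69 ± 0.25 and Mcam at 0.65 ± 0.23, both short of the threshold, and the median of the 13 was 0.10, the same as over all genes. That average joined unlike doses. With vehicle the median of the 13 was 1.02, at 5 mg 0.50 and at 50 mg -0.60, beside 0.06, 0.09 and 0.03 over all genes. At each single dose 0 of the 13 passed. The summed level of these 13 markers ran from 35.2 to 60.2 CPM in AngII hearts and from 26.9 to 51.7 CPM in sham hearts.

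Other cell type markers differed between the arms as well, in the averaged contrast in which 13.4% of all genes rose and 7.53% fell. Of 12 endothelial markers 8 rose and 0 fell, with summed levels of 148 to 345 CPM in AngII hearts and 107 to 137 CPM in sham hearts. Of 10 fibroblast markers 0 rose and 7 fell, with sums of 207 to 332 CPM in AngII hearts and 199.96 to 744 CPM in sham hearts, where both 50 mg libraries were highest. By single dose, 7 fell at 50 mg (median log2 fold change -1.90) and 0 passed with vehicle (-0.38) or at 5 mg (-0.41). Of 6 genes of elastic vessel walls 0 rose and 3 fell, and their sums were 21.3 to 34.9 CPM in AngII hearts and 19.8 to 61.6 CPM in sham hearts. Here too 3 fell at 50 mg (median -1.74) and 0 passed with vehicle (-0.06) or at 5 mg (-0.15). The 5 red cell markers all rose, with sums of 1028 to 3347 CPM in AngII hearts and 290 to 1741 CPM in sham hearts. With vehicle alone their sums were 1028 and 1583 CPM in AngII hearts against 1741 and 1310 CPM in sham hearts, while sham hearts given gastrodin had 290 to 761 CPM. Of 5 macrophage markers 0 rose and 2 fell, and of 10 ventricular markers 3 rose and 1 fell.

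Airway markers were highest in the AngII vehicle libraries and, within the sham arm, in the 5 mg libraries. The 8 lung markers in the matrix summed to 12.6 and 10.1 CPM with vehicle, 2.31 and 4.37 CPM at 5 mg and 3.91 and 2.41 CPM at 50 mg in AngII hearts. In sham hearts they summed to 0.849 and 0.150 CPM with vehicle, 2.08 and 2.89 CPM at 5 mg and 0.294 and 0.0559 CPM at 50 mg. Of the 4 tested, 3, the secretoglobin genes Scgb1a1, Scgb3a1 and Scgb3a2 of airway secretory cells, rose in AngII hearts and 0 fell. The surfactant genes Sftpc, Sftpa1, Sftpb and Sftpd, which define the alveolar type II cell, had a median count under 3. The atrial gene Myl7 was also highest with vehicle in AngII hearts, at 1.33 and 0.607 CPM, against 0.0538 to 0.286 CPM in the other AngII libraries and 0 to 0.0771 CPM in sham hearts, while Nppa, an atrial hormone gene, fell by 1.56 ± 0.24. Of 4 mesothelial markers tested 0 passed, with sums of 1.00 to 3.81 CPM in AngII hearts and 1.06 to 3.92 CPM in sham hearts. Adipoq, the defining adipocyte gene, and the skeletal muscle genes Myh4 and Myh2 had no counts in any library. The median level of the contractile genes was likewise highest in library 2 with vehicle in the AngII arm and in library 10 at 5 mg in the sham arm, where the lung sums were 10.1 and 2.89 CPM. Library 6, second highest for the contractile genes, had a lung sum of 2.41 CPM. The part of these marker levels, and of airway or other tissue carried over with the heart, in the results for the 10 genes was not tested.

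**Figure D5:**
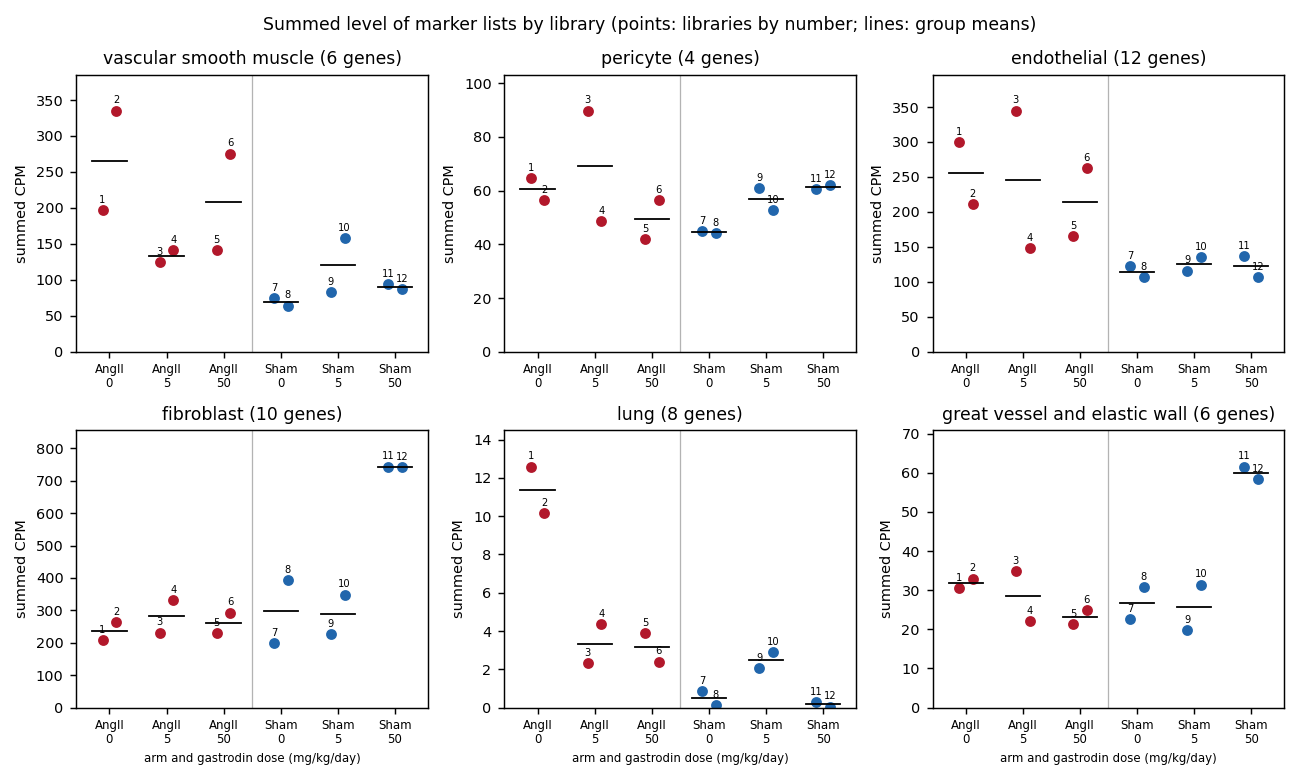
Summed TMM-scaled CPM of 6 marker lists (vertical axes, linear, from 0) by arm and gastrodin dose; points are libraries with their numbers and lines are group means of 2. The lung sum is highest in the AngII vehicle libraries (12.6 and 10.1 CPM), as is the smooth muscle sum of library 2 (335 CPM), and the endothelial sums of AngII hearts (148 to 345 CPM) lie above those of sham hearts (107 to 137 CPM).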

How the data were processed

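Libraries were made from 1 µg of total heart RNA with a TruSeq kit and read as paired ends on a NovaSeq instrument, per the labels' protocols. The deposited matrix holds raw counts per gene, and the TPM values are the authors', per the file headers. HISAT2 2.2.1, StringTie 2.1.3 and GRCm38.p6 were used, per the submitters' processing notes; the sources used here give neither their roles nor the counting program, its strand setting or its treatment of multiply mapped reads. Overlaps came from GENCODE M21.

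In R 4.3.3, edgeR 4.0.16 kept 16723 genes (filterByExpr by group), scaled them by TMM and fitted 1 mean per group over 12 libraries (6 residual degrees of freedom). Contrasts were tested 2-sided with its quasi-likelihood F-test and adjusted by Benjamini-Hochberg at 0.05; SE is the log2 fold change over the root of F. Tested on simulated data, the scripts recovered the known fold changes. How often a change of a given size passes with 2 libraries against 2 is not given here. With vehicle, fitted fold changes of AngII over sham of 7.67 for Tagln and 5.74 for Acta2 did not pass. A gene that did not pass at a single dose is therefore not shown to be unchanged. Alternatives used DESeq2 1.42.0, limma 3.58.1, other filters, scalings and left-out libraries. The 10 genes and the lists were chosen with earlier results of these data known. The text names the 10 genes and the 6 nearest profiles per gene group. From the lists it names some, not all, of the 3 genes per list with the smallest p. Genes named after their values were seen are marked. Srf, Myocd and the lung, adipocyte and skeletal muscle genes of few or no counts stand outside this rule.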

Additional observations from a re-analysis of the deposited data

Results flagged for a closer look

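In each arm, each gene's highest and lowest library was set against the other 5, and a library was picked out where its gap to the nearest was more than 0.625 of the arm's range (Dixon's limit for 6 samples). Of 20 combinations of gene and arm, 5 were picked out. Chance gives about 1 in 20 for independent, normally distributed values of one group; each arm here pools 3 doses and the 5 lie in 2 libraries, so the count is not set against that rate. In library 10 of the sham 5 mg group, Acta2 was at 50.7 CPM (27.6 in the next sham library), Tagln at 30.2 CPM (12.1 in the next) and Cnn1 at 2.98 CPM (0.852 in the next). In library 3 of the AngII 5 mg group, Rgs5 was at 46.6 CPM (29.4 in the next AngII library) and Kcnj8 at 7.08 CPM (4.60 in the next). Library 3 had the highest nuclear share of counts, at 20.3%, and library 10 had 8.15%. No edgeR test of a difference between the arms in the effect of gastrodin passed for any of the 10 genes after the filter on low counts; with no filter, Acta2, Tagln and Cnn1 passed at 5 mg.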

How the results depend on the processing

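No paired analysis was possible because the labels number the libraries 1 to 12 and no number recurs between groups. Over 100 values of the 10 genes, recomputed 2280 times, 74 changed sign, none of them among the 7 called values. In the averaged contrast of the arms the number called was 6; it was 2 with the nuclear share as a covariate, 3 on log2(TPM + 1), 7 by the DESeq2 Wald test (Mylk added), 8 with no filter on low counts (Cnn1 and Mylk added) and 3 to 8 with a library left out (3 without library 6, 8 or 11). In vehicle it was 0; it was 3 by the DESeq2 Wald test, 6 with no filter, 3 with only the groups compared, 1 with the covariate, 3 without libraries 4 and 12 together and 0 to 3 with one left out. At 5 mg it was 0, and 0 to 2 with one left out. At 50 mg it was 1; it was 3 by the DESeq2 Wald test, 3 with no filter, 2 with the covariate, 0 on TPM and 0 to 2 with one left out. With no filter, gastrodin at 5 mg called 1 gene in AngII hearts and 2 in sham hearts, and the interaction at 5 mg called 3. The test of any difference among the groups called 0; it called 8 with no filter, 1 by limma-voom, 1 under a minimum of 1 CPM in 6 libraries, 2 without libraries 4 and 12 together and 0 to 6 with one left out. It could not be run as a DESeq2 Wald test, and Cnn1 has no value with at least 1 CPM in 6 libraries. The share of all genes called in either direction shifted as well. In the averaged contrast it was 20.9%, against 2.82% with the covariate and 8.78% on log2(TPM + 1). In vehicle it was 0.0598%, against 4.46% with no filter. For the interaction at 5 mg it was 0.00598%, against 0.374% with no filter. For the other alternatives the share is not given here, so their counts cannot be set against it. The cause of these shifts was not tested.

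Of the 74 sign changes 57 concern 28 values of single genes that are not printed here as such. Among them are pericyte values of the interaction at 5 mg and contractile values at 50 mg. The other 17 concern printed values, as follows. In the averaged contrast Rgs5 was at 0.26 on TPM. In vehicle Rgs5 was at 0.012 with at least 1 CPM in 6 libraries, at 0.41 on TPM and at -0.023 to 0.018 with one left out. At 5 mg Tagln was at 0.31 on TPM and Acta2 at -0.002 without libraries 4 and 12 together; with one left out Acta2 was at -0.17 to 1.04, Tagln at -1.24 to 0.50 and Cnn1 at -2.01 to 0.97. For gastrodin at 5 mg in AngII hearts Smtn was at 0.12 without libraries 4 and 12 together and at -1.03 to 0.12 with one left out, and at 50 mg Acta2 was at -1.24 to 0.12. In sham hearts at 5 mg Mylk was at -0.14 to 0.82. Where a left-out library leaves a group with 1, that library is assumed to vary like the other groups. The 2 libraries per group and the low counts of Cnn1 (16 to 442) limit what single doses can show.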
